A study of Mus musculus with 8 samples.

Results

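Glycolysis splits glucose into pyruvate in the cytosol. Glucose enters through the transporters GLUT1 (Slc2a1) and GLUT3 (Slc2a3), hexokinase traps it by phosphorylation, a chain of enzymes turns it into pyruvate, and lactate dehydrogenase can reduce pyruvate to lactate. Naive T cells are quiescent and draw mainly on mitochondrial respiration, whereas activated T cells raise glucose uptake and glycolysis. The genes described here are Slc2a1, Slc2a3 and the enzyme genes Hk1, Gpi1, Aldoa, Tpi1, Gapdh, Pgk1, Pkm and Ldha. These 10 genes were taken by symbol from the 23156 genes listed, and each of the 10 was found and passed the filter on low values.

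Ribosome-protected fragments (footprints) had been sequenced from naive CD4+ T cells of C57BL/6 mice, either wild type (WT) or Mettl3 knockout (KO), with 2 footprint libraries per genotype. Mettl3 is the catalytic subunit of the enzyme complex that places m6A, a methyl mark, on mRNA. Cells of both genotypes were held in cycloheximide at 0.1 mg/ml for 1 min, which stops ribosomes on the message. The promoter or cell type behind the deletion, the age of the mice and their number per library are not stated in the labels. The labels call the libraries of a genotype replicates without naming separate animals, so p-values measure a spread that may be technical. The accompanying 4 input RNA libraries were not analysed here, and a footprint level therefore carries both the amount of an mRNA and its ribosome load. Cells of 1 type becoming fewer and each cell holding less RNA cannot be told apart in such bulk libraries.

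Levels are FPKM, fragments scaled to the length of the gene model and to the number of reads. From the value that a single read takes in low genes, the libraries held about 5620000 and 3390000 reads in WT and 5890000 and 2820000 reads in KO. Small RNAs took 37.0% to 43.7% of the summed FPKM in WT and 49.4% to 55.7% in KO. Mettl3 itself stood at 24.5 and 21.1 FPKM in WT and at 2.44 and 3.32 FPKM in KO, so the targeted gene followed the labels (log2 fold change -2.62, SE 0.18, limma adjusted p = 0.00202). T cell markers (8 of 11 listed, Cd4 and Cd3e among them) summed to 620 and 704 FPKM in WT against 541 and 559 FPKM in KO. Markers of other cells summed to far less, at 7.84 to 26.3 FPKM for B cells, 6.95 to 15.0 for NK cells, 14.1 to 24.1 for myeloid cells, 6.05 to 45.4 for erythroid cells, 0.295 to 1.61 for platelets and 1.13 to 2.41 for CD8 T cells. The defining markers Pax5, Ncr1, S100a9 and Gp1bb were listed at 0 in each of the 4 libraries.

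A footprint is about 30 bases long, and several of these enzymes have many processed gene copies in the mouse genome, from which such a short read cannot be separated. Every 30-base stretch of each coding sequence was therefore looked up in the transcripts of all other genes of GENCODE M21 (GRCm38), on the sense strand. For Gapdh, 973 of 973 stretches also occurred in another annotated gene, and 336 other genes, 329 of them pseudogenes, held at least 1 of them. All 1225 stretches of Pgk1 were shared, with 7 pseudogenes. The share was 79.8% for Pkm, 64.2% for Ldha, 51.3% for Gpi1, 49.7% for Aldoa and 33.1% for Tpi1, and it was 0% for Slc2a1, Slc2a3 and Hk1. Thus 5 of the 10 genes shared over 50% of their stretches, against 10.6% of the 8842 tested protein-coding genes, whose median share was 0%. For Gapdh, Ldha, Pgk1, Aldoa, Tpi1 and Gpi1 the most widely shared stretch is printed below, 5′ to 3′ on the coding strand, because it shows what a read of footprint length from that gene can look like.

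Gapdh: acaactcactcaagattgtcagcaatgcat
Ldha: atttccaccatgattaagggtctctatgga
Pgk1: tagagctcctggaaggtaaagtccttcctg
Aldoa: cagcagaatggcattgtacccattgtggag
Tpi1: gggggcaactggaagatgaacgggaggaag
Gpi1: atggctgcgctcacccggaacccgcagttc

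The Gapdh stretch (coding bases 416 to 445, chr6:125162917-125162946, minus strand) was found in 131 other genes. The Ldha stretch, which crosses an exon junction, was found in 15, the junction-spanning Pgk1 stretch in 6, the junction-spanning Aldoa stretch in 5, the Tpi1 stretch (chr6:124814066-124814095, minus strand) in 3 and the Gpi1 stretch (chr7:34230184-34230213, minus strand) in 1. Few of these copies have a level of their own in the table. The Gapdh pseudogene Gm7336, which carries all 973 stretches, stood at 0.293 to 0.5 FPKM, and Aldoart1, which carries 207 of the 1066 stretches of Aldoa, stood at 3.06 and 3.17 FPKM in WT libraries and at 2.23 and 1.72 FPKM in KO libraries. How reads that match several genes were assigned is not given in the sources used here, and the part of shared sequence in the levels was not tested.

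**Figure D1:**
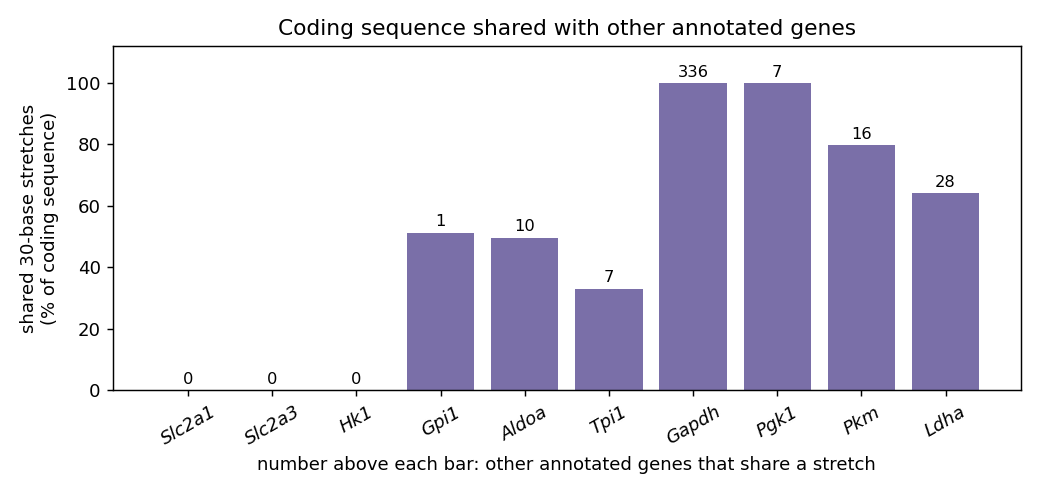
Bars show, for each of the 10 genes in pathway order, the percentage of 30-base stretches of the coding sequence that also occur in a transcript of another annotated gene (GENCODE M21), and the number above each bar counts those other genes. Gapdh and Pgk1 stand at 100%, and Slc2a1, Slc2a3 and Hk1 at 0%.

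Of the 10 genes, 3 enzyme genes held most of the footprint signal. Pkm, pyruvate kinase, which makes pyruvate and ATP in the last step, had a mean of 236 FPKM over the 4 libraries. Pgk1, phosphoglycerate kinase, which makes the first ATP of the pathway, had 130 FPKM, and Aldoa, the aldolase that cleaves the six-carbon sugar, had 107 FPKM. These means were higher than those of 98.6%, 97.4% and 96.9% of all tested genes. Pkm, Pgk1 and Aldoa together made up 79.7% and 80.1% of the FPKM summed over the 10 genes in WT, against 74.1% and 74.4% in KO. Lower means followed for Gpi1 (41.1 FPKM), Ldha (35.9 FPKM), Tpi1 (19.7 FPKM) and Hk1 (18.4 FPKM). The transporters were low, with 9.55 FPKM for Slc2a1 and 6.04 FPKM for Slc2a3. Gapdh, the dehydrogenase between Tpi1 and Pgk1 in the pathway and a frequent reference gene, had only 8.33 FPKM, above 56.7% of tested genes.

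Some steps in this order were wider than the spread of the libraries and some were not. The lowest Pkm value lay above the highest of Pgk1, the lowest of Aldoa above the highest of Gpi1, and the lowest of Hk1 above the highest of Slc2a1. Pgk1 exceeded Aldoa in each of the 4 libraries, and so did Tpi1 over Hk1, although the ranges met. Gpi1 and Ldha were not ordered, with Gpi1 higher in 2 of 4 libraries, and Gapdh overlapped both transporters, while the lowest Slc2a1 value lay above the highest of Slc2a3. FPKM divides by the whole transcript while footprints fall on the coding part, which is 37.4% of the transcript for Slc2a3, 45.4% for Slc2a1 and 73.7% for Hk1. Expressed per kilobase of coding sequence, the order stayed as it was for the first 8 genes, and Slc2a3 (16.1) then stood above Gapdh (11.8), which came last.

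**Figure D2:**
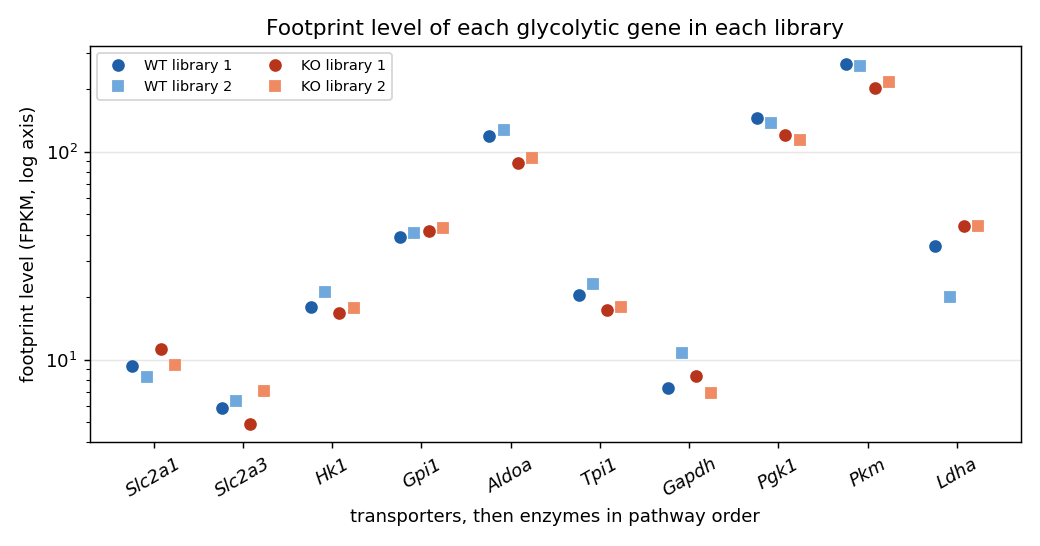
Footprint level (FPKM, log axis) of each gene in each of the 4 libraries, blue for WT and red for KO, circles for library 1 and squares for library 2, with no averaging. Pkm, Pgk1 and Aldoa lie near or above 100 FPKM with both KO libraries under both WT libraries, and Ldha shows the widest gap between the WT libraries.

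Mettl3 loss was compared by genotype with limma on log2(FPKM + 1), and p-values were adjusted over all 9270 genes tested. None of the 10 genes passed the adjusted threshold of 0.05 (0 higher and 0 lower in KO), where 2.28% of all tested genes did, 1.60% higher and 0.68% lower. At an unadjusted limma p under 0.05 there were 4 of the 10, of which 3 were lower (Aldoa, Pkm and Pgk1) and 1 higher (Ldha) in KO, and 18.5% of all tested genes met that level. That count was 2 of the 10 with libraries centred on their medians, rescaled without small RNAs or fitted with no variance trend. With 1 library left out it was 1 (without KO library 1) or 2 (without any other). Both KO libraries lay outside the WT libraries for 8 of the 10, of which 5 lay below and 3 above, while 50.9% of all tested genes were so placed, 34.6% below and 16.3% above. The median log2 fold change of the 10 was -0.19, beside -0.10 for all tested genes. It was -0.092 with centred libraries, where all tested genes had -0.0082, -0.11 with rescaled libraries, where they had -0.033, and -0.028 without WT library 2, where they had -0.078.

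**Figure D3:**
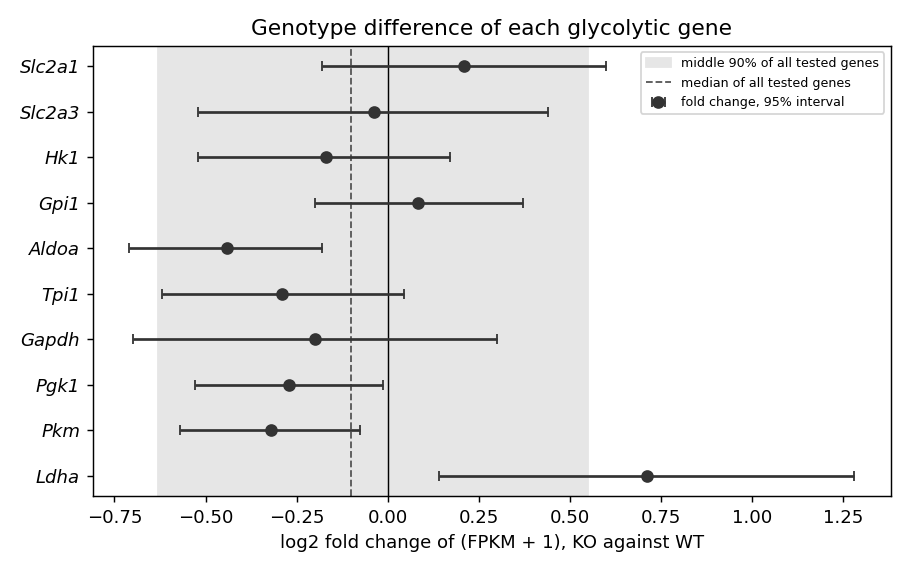
Points give the limma log2 fold change of (FPKM + 1), KO against WT, for each gene with its 95% interval. The grey band spans the 5th to the 95th percentile of all tested genes (-0.63 to 0.55), the dashed line is their median (-0.10), and 9 of the 10 points lie inside the band, with Ldha to its right.

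Neither transporter passed the test. Slc2a1 (chr4:119108711-119137983), the basal glucose transporter of many cell types, stood at 9.30 and 8.26 FPKM in WT and at 11.3 and 9.38 FPKM in KO. Its KO libraries lay narrowly above the WT libraries, and the log2 fold change was 0.21 (SE 0.17, 95% interval -0.18 to 0.60, limma adjusted p = 0.552). Slc2a3 (chr6:122727809-122801640), a transporter of high affinity, stood at 5.87 and 6.32 FPKM in WT and at 4.88 and 7.10 FPKM in KO. The WT values fell between the KO values, and its log2 fold change of -0.039 (95% interval -0.52 to 0.44, limma adjusted p = 0.941) turned to 0.056 when libraries were centred on their medians.

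The first enzymes of the pathway did not pass it either. Hk1 (chr10:62268855-62379908), the hexokinase that commits glucose to the cell, had 18.0 and 21.1 FPKM in WT against 16.7 and 17.7 FPKM in KO. The groups did not overlap, but WT library 1 and KO library 2 nearly met, and the log2 fold change was -0.17 (SE 0.15, 95% interval -0.52 to 0.17, limma adjusted p = 0.580). Its inducible relative Hk2, named after its values were seen, stood at 0.182 to 0.718 FPKM and was below the filter. Gpi1 (chr7:34201330-34230336), which turns glucose-6-phosphate into fructose-6-phosphate, had 38.8 and 40.8 FPKM in WT against 41.5 and 43.0 FPKM in KO. Both KO libraries were above both WT libraries by a small margin, with a log2 fold change of 0.084 (SE 0.12, 95% interval -0.20 to 0.37, limma adjusted p = 0.750).

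Aldoa (chr7:126795234-126800751) had the lowest p of the 10 genes. GENCODE M21 lists a second protein-coding entry of that symbol (chr7:126800790-126809108), and shared stretches and exon overlaps were counted with the 2 entries pooled. Aldoa stood at 119 and 128 FPKM in WT and at 88.0 and 93.4 FPKM in KO, means of 124 ± 6.15 and 90.7 ± 3.79 (SD, n = 2 each). The groups were clearly apart, and the log2 fold change was -0.44 (SE 0.11, 95% interval -0.71 to -0.18, limma adjusted p = 0.106). A share of 12.7% of all tested genes had a lower fold change. Over 14 alternative settings its fold change stayed between -0.49 and -0.35 and its adjusted p between 0.0837 and 0.366. By the sum of squared differences of centred log2 values over the 4 libraries, the closest of 5539 other genes with at least 5 FPKM were Dync1i2 (23.0 FPKM in WT, 16.3 in KO), Csnk2a1 (44.6 and 33.3) and Adcy7 (49.8 and 35.9).

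Tpi1 (chr6:124810586-124814296), which interconverts the triose phosphates that aldolase releases, had 20.4 and 23.1 FPKM in WT against 17.4 and 17.9 FPKM in KO. Its KO libraries lay below the WT libraries, with a log2 fold change of -0.29 (SE 0.14, 95% interval -0.62 to 0.045, limma adjusted p = 0.334). Gapdh (chr6:125161715-125166467) had 7.31 and 10.8 FPKM in WT against 8.34 and 6.91 FPKM in KO, so the groups overlapped. These correspond to about 58, 52, 70 and 28 reads, the fewest of the 10 genes in each library. The Gapdh log2 fold change was -0.20 (SE 0.21, 95% interval -0.70 to 0.30, limma adjusted p = 0.653), and it turned to 0.049 without WT library 2.

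The kinases that make ATP were lower in both KO libraries without passing the adjusted threshold. Pgk1 (chrX:106187100-106203699) stood at 146 and 138 FPKM in WT and at 121 and 114 FPKM in KO, a log2 fold change of -0.27 (SE 0.11, 95% interval -0.53 to -0.014, limma adjusted p = 0.247). Pkm (chr9:59656368-59679375) stood at 265 and 260 FPKM in WT and at 203 and 217 FPKM in KO. The gap between its genotypes exceeded the gap within either, with means of 263 ± 3.67 and 210 ± 10.1 FPKM (SD, n = 2 each) and a log2 fold change of -0.32 (SE 0.11, 95% interval -0.57 to -0.075, limma adjusted p = 0.176). The intervals of Aldoa, Pgk1 and Pkm reach no further than 0.611, 0.691 and 0.674 times the WT level of FPKM + 1. With libraries centred on their medians, the log2 fold changes were -0.18 for Pgk1 and -0.23 for Pkm (limma adjusted p = 0.513 and 0.342). That setting moved the median of all tested genes from -0.10 to -0.0082. The table gives 1 value per gene, so the alternative exons that distinguish the M1 and M2 forms of pyruvate kinase cannot be told apart.

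Ldha (chr7:46841475-46855627), the lactate dehydrogenase subunit that favours making lactate, had a fold change of opposite sign to these kinases. It stood at 35.3 and 20.0 FPKM in WT and at 44.2 FPKM in each KO library, means of 27.7 ± 10.8 and 44.2 ± 0.0449 (SD, n = 2 each). Both KO libraries were above both WT libraries, but the WT libraries differed from each other more than WT library 1 differed from KO. The log2 fold change was 0.71 (SE 0.24, 95% interval 0.14 to 1.28, limma adjusted p = 0.188), and 96.6% of all tested genes had a lower one. It was 1.11 without WT library 1 (adjusted p = 0.0509) and 0.32 without WT library 2 (adjusted p = 0.496). Ldhb, the subunit that favours the reverse reaction, was named after its values were seen. It had 8.0 FPKM in each WT library and 4.53 and 4.61 FPKM in KO, a log2 fold change of -0.69 (95% interval -1.07 to -0.31, limma adjusted p = 0.0882). The Ldha to Ldhb ratio stood at 4.41 and 2.50 in WT libraries, against 9.76 and 9.59 in KO libraries. It was given no test, and both subunits share coding stretches with other genes (64.2% for Ldha and 55.2% for Ldhb).

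The 10 genes summed to 666 and 657 FPKM in WT and to 556 and 571 FPKM in KO, a KO to WT ratio of 0.852. T cell markers, summed in the same way, had a ratio of 0.831, naive T cell markers a ratio of 1.12, and the median FPKM of tested genes a ratio of 0.928. The naive markers stood at 658 and 760 FPKM in WT libraries and at 767 and 820 FPKM in KO libraries. After each library was rescaled to the same total outside small RNAs, the ratio of the 10 genes was 0.900, and it was 0.919 after division by the libraries' medians. The part of the small RNA share and of the marker levels in these sums was not tested. Markers of T cell activation and effector function summed higher in KO, at 206 and 218 FPKM in WT against 256 and 296 FPKM in KO. Most of each sum was Cd69, which differed little (176 and 182 FPKM in WT, 182 and 190 FPKM in KO, limma adjusted p = 0.801). Mean levels of Il2ra (0.713 and 0.745 FPKM) and Cd44 (3.07 and 3.54 FPKM) also differed little. Tnfrsf9 (6.54 and 5.71 FPKM) and Pdcd1 (0.399 and 0.221 FPKM) had lower means in KO, but the libraries of the genotypes overlapped for both. Il2ra and Pdcd1 were below the filter. Ctla4 (3.87 and 8.97 FPKM, limma adjusted p = 0.0817) and Tnfrsf4 (3.73 and 7.83 FPKM, limma adjusted p = 0.0572) were higher in both KO libraries without being called. Of the 13 listed, 11 were tested and 5 called, beside 2.28% of all tested genes (1.60% higher in KO). Of the 11, 10 had a log2 fold change above 0 and 1 below. But the called Gzmb and Tbx21 and the uncalled Mki67 had WT means of 0.321, 0.66 and 0.762 FPKM. They passed the filter only through their KO level, so no direction is read from these counts. Gzmb, a protease of cytotoxic granules, had a KO mean of 10.4 FPKM. Ifng, the cytokine interferon gamma, rose from 2.66 to 15.1 FPKM, the chemokine receptor Cxcr3 from 3.61 to 15.4 FPKM and the costimulatory receptor Icos from 7.12 to 15.7 FPKM. Of the 2 NK cell markers tested, Klrd1, a receptor chain of NK cells, fell from 9.04 to 2.22 FPKM. The other, Eomes, went the opposite way, from 2.61 to 4 FPKM, and was not called (limma adjusted p = 0.265). Of the 11 activation markers tested, 1 was called without WT library 1 or WT library 2, 2 without KO library 1 and 0 without KO library 2, with 3 called under the replicate block and 0 with no filter on low genes. The Klrd1 call was lost with any 1 library left out (limma adjusted p = 0.0559 to 0.13).

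Because Mettl3 writes m6A near stop codons, where the mark is known to be frequent, the last 100 coding bases of each gene were searched on the sense strand for GGACT, a favoured m6A sequence. It occurred in 2 of the 10 genes, Slc2a1 and Gpi1, and in 12.4% of 8838 tested coding genes with a complete coding end. Over whole coding sequences, GGACT occurred at 3.37 per kilobase in Slc2a3, 3.19 in Pgk1 and 3.13 in Pkm, and not at all in Aldoa and Gapdh, beside a median of 1.02 for tested coding genes. A match is a stretch of letters and not a measured methylation site, and bases after the stop codon were not searched. The coding ends of the 2 genes that hold it and of Pkm and Ldha, whose fold changes had opposite signs, are printed with GGACT in capitals and the stop codon at the right.

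Slc2a1: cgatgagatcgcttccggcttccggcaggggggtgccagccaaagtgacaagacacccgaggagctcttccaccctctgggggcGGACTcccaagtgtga
Gpi1: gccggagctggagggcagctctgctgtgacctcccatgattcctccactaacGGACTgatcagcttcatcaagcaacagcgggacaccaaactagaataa
Pkm: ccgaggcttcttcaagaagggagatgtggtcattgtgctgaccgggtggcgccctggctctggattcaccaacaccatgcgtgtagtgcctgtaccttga
Ldha: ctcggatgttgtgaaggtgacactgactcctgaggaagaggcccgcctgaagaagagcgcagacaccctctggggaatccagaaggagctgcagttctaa

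These lie at chr4:119136347-119136446 (plus strand), chr7:34202414-34202513 (minus strand), chr9:59678735-59678834 (plus strand) and chr7:46855042-46855141 (plus strand) of GRCm38, each within 1 exon.

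Genes around the pathway were examined in 8 lists. Of their 135 genes, 101 passed the filter, and 0 of the 101 passed the adjusted limma threshold, the lowest adjusted p being 0.0673. At an unadjusted p under 0.05 there were 23, namely 4 with higher and 19 with lower levels in KO. Among all tested genes 6.25% and 12.2% met that level in the same directions. Among the other glycolytic enzymes and their paralogs (14 tested, 1 higher and 3 lower at that level, median log2 fold change -0.056, which turned to 0.038 with libraries centred on their medians), Eno1, the enolase, had 132 ± 3.75 and 124 ± 0.850 FPKM. Pfkp, the phosphofructokinase of highest level here, had 27.9 and 22.3 FPKM, a log2 fold change of -0.31 (limma adjusted p = 0.269). Pgam2, a mutase, named after its values were seen, stood at 1.81 and 1.48 FPKM in WT against 3.90 and 4.51 FPKM in KO. Its limma adjusted p of 0.0673 was 0.0429 with libraries centred on their medians and ran up to 0.321 over the other alternatives. Eno1b, a near-identical copy of Eno1 also named afterwards, was listed at 47.2 FPKM in KO library 2 and at under 0.01 FPKM elsewhere. It passed the filter only through that library, and the list median and its turn of sign include it. The Eno1 values are therefore uncertain too. Pgam1, likewise, shares 100% of its coding stretches with other genes and had 23.8 and 24.6 FPKM.

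Only 3 of 14 other glucose and lactate transporter genes were tested, with a median of -0.18 and with 1 higher and 0 lower at an unadjusted p under 0.05. The higher one, named after its values were seen, was Slc2a9, known mainly as a urate transporter. It stood at 2.86 and 2.98 FPKM in WT and at 3.92 and 5.06 FPKM in KO, a log2 fold change of 0.48 (limma adjusted p = 0.258). Bsg, the chaperone of the lactate transporters, had 41.7 FPKM in WT against 36.8 FPKM in KO, and Slc16a1, the lactate transporter MCT1, had 5.46 and 4.57 FPKM. Regulators of flux (10 tested, 0 higher and 2 lower at an unadjusted p under 0.05, median -0.082, which turned to 0.013 with 1 gene at that level when libraries were centred) included Pdk1, a kinase that inhibits pyruvate dehydrogenase and so holds back the conversion of pyruvate to acetyl-CoA. Pdk1 stood at 50.5 and 67.0 FPKM in WT and at 39.8 and 34.7 FPKM in KO, a log2 fold change of -0.63 (limma adjusted p = 0.111). Txnip, which restrains glucose uptake, had 249 FPKM in WT against 203 FPKM in KO (fold change -0.29 on the log2 scale, limma adjusted p = 0.197). Transcriptional regulators had a median of 0.0055 over 12 tested genes. Hif1a, which switches on glycolytic genes in low oxygen, had 17.6 and 19.4 FPKM in WT against 22.8 and 28.0 FPKM in KO (fold change 0.43 on the log2 scale, limma adjusted p = 0.200), and Max, the partner of Myc, had 16.9 and 17.9 FPKM. Hypoxia targets outside glycolysis had a median of -0.15 over 8 genes, with Mif at 168 and 123 FPKM and Ddit4 at 26.3 and 23.3 FPKM.

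**Figure D4:**
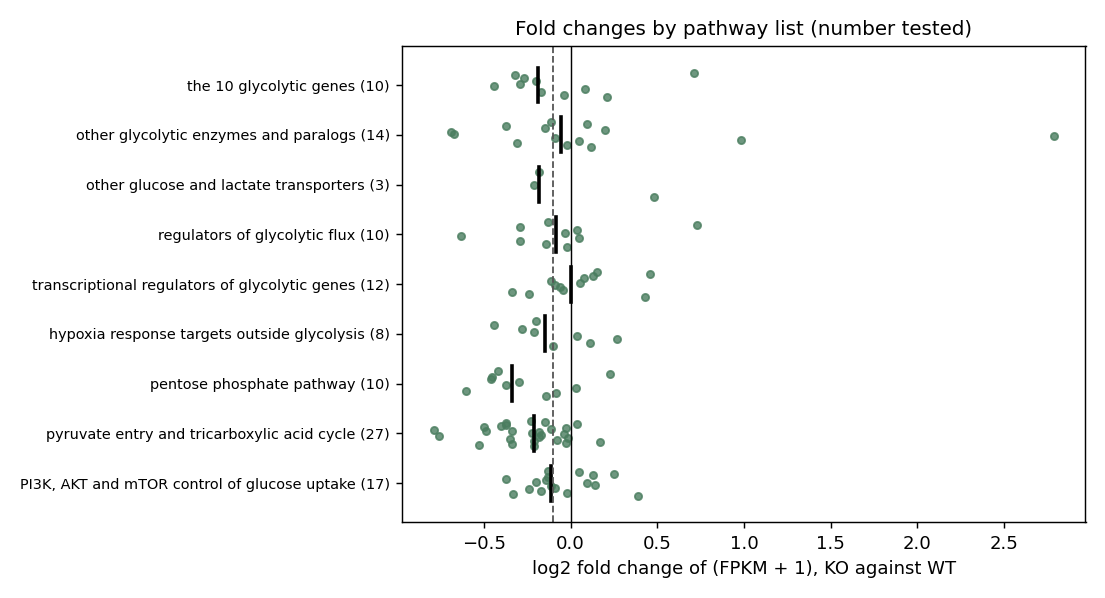
Each point is a tested gene, placed by its limma log2 fold change of (FPKM + 1), KO against WT, in the 10 glycolytic genes and the 8 lists around them, with the number tested in brackets. Black ticks are list medians, the dashed line is the median of all tested genes (-0.10), and the point farthest to the right is Eno1b (2.79).

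The lists that lead away from glycolysis were the lowest by median, the second of them (-0.21) only narrowly below the transporters (-0.18). The pentose phosphate pathway, which draws on glucose-6-phosphate for NADPH and ribose, had a median of -0.34 over 10 tested genes. At an unadjusted p under 0.05 there were 4 lower and 0 higher, beside 12.2% and 6.25% of all tested genes. Its transketolase Tkt had 33.4 FPKM in WT against 24.0 FPKM in KO (fold change -0.46 on the log2 scale, limma adjusted p = 0.146), and the transaldolase Taldo1 had 32.9 and 23.8 FPKM (-0.45, limma adjusted p = 0.134). The list of pyruvate entry and the tricarboxylic acid cycle had a median of -0.21 over 27 genes, with 9 lower and 0 higher at that level, and with 4 genes at that level when libraries were centred and 5 when they were rescaled. Both KO libraries lay below both WT libraries for 18 of the 27 and above them for 0, beside 34.6% and 16.3% of all tested genes. Pdha1, a subunit of pyruvate dehydrogenase, had 48.5 and 38.0 FPKM (fold change -0.34 on the log2 scale, limma adjusted p = 0.214), and Sdhd, a subunit of succinate dehydrogenase, had 36.7 and 37.7 FPKM. With libraries centred on their medians the list medians were -0.24 and -0.11, beside -0.092 for the 10 glycolytic genes and -0.0082 over all tested genes. The list of PI3K, AKT and mTOR genes had a median of -0.11 over 17 genes. In it, Pik3cd, the main PI3K catalytic subunit of lymphocytes, had 37.6 and 49.3 FPKM (fold change 0.39 on the log2 scale, limma adjusted p = 0.193) and Slc3a2, a chain of amino acid transporters, had 36.1 and 43.2 FPKM. Centred medians were -0.017 for that list, -0.059 for the hypoxia targets, -0.083 for the transporters and 0.10 for the transcriptional regulators.

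Annotated exons of 7 of the 10 glycolytic genes overlap exons of another gene, among them Tpi1 with Spsb2, Gapdh with Iffo1 and Aldoa with Fam57b. Whether strand was used in counting is not given in the sources used here, so reads there cannot be assigned to either gene with certainty.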

How the data were processed

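Per the file headers, the authors deposited FPKM for each of the 4 footprint libraries, with a column per replicate. Per the submitters' processing notes, TopHat, Cuffdiff and the build mm10 (GRCm38) were used. Versions, annotation, use of strand, assignment of multiply matching reads and any scaling between libraries are stated in neither labels nor headers. Small RNA genes (1231, by symbol or GENCODE M21 type) were left out, and genes averaging 1 FPKM or more were kept (9270). Genotypes were compared on log2(FPKM + 1) with limma 3.58.1 in R 4.3.3 (variance trend, two-sided, 2 residual and 5.22 prior degrees of freedom), and p-values were adjusted by Benjamini-Hochberg across the tested genes, with a threshold of 0.05 and 95% intervals. Fold changes on this scale understate the change of low genes. With 2 libraries against 2, an exact permutation test cannot go below p = 0.333 and was not used. Depth was estimated from the most frequent low value of FPKM times length in 3807 genes with a single annotated transcript. Lengths and coding sequences come from 1 RefSeq-matched APPRIS transcript per gene of GENCODE M21, whose symbols matched 22667 of the 23156 genes. Named were the 10 genes, from each list up to 4 called genes and the 2 of highest mean, the 3 genes closest to the gene of lowest p, and Mettl3. For marker lists this rule was kept for called genes, and the 2 highest genes were left out in favour of sums, except Cd69 and Eomes. Il2ra, Cd44, Tnfrsf9, Pdcd1, Ctla4 and Tnfrsf4 were added after their values were seen. The genes and lists were chosen with earlier results of these data known. The fit was tested on simulated data. Tables and plots used Python 3.11.15, numpy 2.4.6, pandas 2.3.3, scipy 1.17.1 and matplotlib 3.10.9. The shared stretch of Pkm is not reported here.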

Additional observations from a re-analysis of the deposited data

How the results depend on the processing

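None of the 10 genes passed the limma threshold in the reported fit or in any of 14 alternatives, and their lowest adjusted p was 0.0509 (Ldha without WT library 1). Numbers of all genes called higher and lower, 148 and 63 as reported, were 0 and 0 with no filter on low genes (2062 of 15455 at an unadjusted p under 0.05), 56 and 27 with small RNAs kept, and 47 and 21 with no variance trend. With a minimum of 5 FPKM, 102 were called lower. Leaving out 1 library gave 9 to 43 higher and 4 to 26 lower. Calls were 206 and 51 with libraries centred on their medians (80.2% higher, against 70.1%) and 184 and 52 with libraries rescaled without small RNAs (78.0%). The summed ratio of the 10 genes, 0.852, was 0.900 when rescaled and 0.919 when divided by library medians, an alternative chosen after seeing the data. Some log2 fold changes turned sign. As reported they lay between -0.21 (Ddit4) and 0.049 (Pgam1), except that of Eno1b at 2.79, which rested on KO library 2 alone. Slc2a3 was 0.056 centred, 0.029 rescaled, 0.0073 without WT library 2 and 0.19 without KO library 1, and ran from -0.27 to 0.19 when 1 library was left out. Gapdh was 0.049 without WT library 2 (-0.45 to 0.049 over the libraries). Eno1 was 0.0026 centred. Sdhd was -0.08 without WT library 1 and -0.077 without KO library 1, Ddit4 was 0.16 without KO library 1 (-0.58 to 0.16), Pgam1 was -0.18 without WT library 2 or KO library 2 (-0.18 to 0.28), and Eno1b was -0.0017 without KO library 2 (-0.0017 to 5.59). The cause of these shifts was not tested. The Mettl3 call was lost only with no filter on low genes (adjusted p = 0.166). With the replicate block, 121 genes were called higher and 50 lower, and no call on the 10 genes changed. The replicate numbers come with no shared animal or batch in the labels, and same-numbered libraries deviated with a correlation of -0.0938. Estimated reads per gene and library ran from 28 (Gapdh) to 3625 (Pkm), which limits the low genes most.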
